A study of Mus musculus with 8 samples.

Results

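Chromosome 8 of the mouse genome held 7541 of the 160978 regions of open chromatin that the authors compared between leukemic and non-leukemic marrow cells. The chromosome was selected on its measured values, since it had the highest share of regions that gained accessibility of the 20 chromosomes. Its members are all regions whose deposited coordinates lie on chromosome 8 of GRCm38, whatever their change. The counts of gains and losses are therefore a description of these data, with no test, and so are the folds of the same comparison.

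Chromatin accessibility had been measured by ATAC-seq, in which a transposase inserts adapters where DNA is not packed, in 8 libraries of mouse bone marrow cells sorted for cKit and against lymphoid and erythroid markers (HSPC, hematopoietic stem and progenitor cells). The AML (acute myeloid leukemia) libraries were 2 of genotype URE-delta/+;Tet2+/- and 2 of genotype URE-delta/+;Tet2-/-. The normal libraries were 1 each of URE+/+;Tet2+/+, URE-delta/+;Tet2+/+, URE+/+;Tet2+/- and URE+/+;Tet2-/-, and the sources used here give no ages. The URE is a distal enhancer of the gene for PU.1, a transcription factor of myeloid cells, and Tet2 encodes an enzyme that oxidises methylated cytosine. No normal library carried both lesions, so effects of leukemia and of carrying both lesions cannot be told apart. The labels place the URE+/+;Tet2+/- and URE+/+;Tet2-/- libraries in sequencing lane 8, which holds no AML library, and the others in lanes 6 and 7. The sources used here do not state which libraries entered each side of the comparison, and its name speaks of low PU.1.

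Open regions are where promoters and enhancers bind transcription factors, so a change in accessibility can reflect how regulatory DNA is occupied or how many cells carry that open state. ATAC-seq also reads DNA dose, because an extra or missing copy of a segment gives more or fewer fragments along its whole length. Bins along the chromosome and single genes are therefore described separately, and DNA dose was not measured apart from these folds. Mouse chromosome 8 carries the interferon regulatory factor genes Irf8 and Irf2, the core binding factor subunit gene Cbfb, the erythroid factor gene Klf1, the metallothionein cluster and the fragile-site gene Wwox.

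The deposited values are 1 log2 fold change per region (leukemic over non-leukemic), 1 log2 average abundance (the level of reads) and a p-value with its adjusted p. A region is said to have risen or fallen when its adjusted p lay under 0.001 by the authors' deposited table, which is the authors' own limit for their lists. The files used give no values per library, so no fold below carries an error, and overlap between the groups' libraries could not be looked at. At genes that mark the sorted cells, the highest log2 abundance had a median of 2.44 over 8 stem and progenitor genes such as Kit and Runx1. It was -0.48 over 7 lymphoid genes, -0.28 over 8 erythroid genes and 0.54 over 6 stromal genes. Lymphoid and erythroid genes with regions above 1 included Cd79a, Pax5 and Klf1.

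Promoters of chromosome 8 that changed included neighbouring metallothionein genes, a clotting factor gene, a lipid phosphatase gene, an adaptor gene and a co-repressor gene. Each is shown as RefSeq's GRCm38.p6 gives it, from 250 bases before the annotated start to 30 after it, read 5′ to 3′ along the gene. The first group holds promoters that rose, so that the shared elements of the metallothionein cluster can be seen. Capitals mark metal response elements (TGCGCNC or TGCACNC on either strand, bound by the zinc sensor MTF1) and, in Mt2, the AP-1 element TGANTCA.
Mt2 promoter, chr8:94172368-94172647, plus strand: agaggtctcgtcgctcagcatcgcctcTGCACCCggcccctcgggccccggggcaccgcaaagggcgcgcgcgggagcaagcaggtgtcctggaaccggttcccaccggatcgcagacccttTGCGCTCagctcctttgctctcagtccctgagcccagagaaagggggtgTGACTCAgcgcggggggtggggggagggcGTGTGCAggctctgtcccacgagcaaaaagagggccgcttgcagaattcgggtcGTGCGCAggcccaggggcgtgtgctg
Mt1 promoter, chr8:94178839-94179118, plus strand: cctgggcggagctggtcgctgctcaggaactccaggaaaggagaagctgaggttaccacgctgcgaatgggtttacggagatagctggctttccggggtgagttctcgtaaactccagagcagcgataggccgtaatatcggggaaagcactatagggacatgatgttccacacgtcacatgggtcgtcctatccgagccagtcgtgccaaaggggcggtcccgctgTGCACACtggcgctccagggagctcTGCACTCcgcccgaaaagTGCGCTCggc
Gm39228 promoter, chr8:94183169-94183448, plus strand: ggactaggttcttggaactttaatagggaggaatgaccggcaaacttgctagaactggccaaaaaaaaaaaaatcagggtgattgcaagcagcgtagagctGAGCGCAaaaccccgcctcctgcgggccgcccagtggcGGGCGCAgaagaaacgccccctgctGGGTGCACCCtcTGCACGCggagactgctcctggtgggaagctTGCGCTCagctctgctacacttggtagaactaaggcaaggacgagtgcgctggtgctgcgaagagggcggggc
F10 promoter, chr8:13037058-13037337, plus strand: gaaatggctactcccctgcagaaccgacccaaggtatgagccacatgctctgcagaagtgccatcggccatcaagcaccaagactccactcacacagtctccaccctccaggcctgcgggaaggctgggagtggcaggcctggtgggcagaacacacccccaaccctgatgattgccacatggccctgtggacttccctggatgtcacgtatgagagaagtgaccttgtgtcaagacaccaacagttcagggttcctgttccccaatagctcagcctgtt
The second group holds promoters that fell, where the only capitals are the PU.1 element GAGGAAGT in Cbfa2t3.
Inpp4b promoter, chr8:81342312-81342591, plus strand: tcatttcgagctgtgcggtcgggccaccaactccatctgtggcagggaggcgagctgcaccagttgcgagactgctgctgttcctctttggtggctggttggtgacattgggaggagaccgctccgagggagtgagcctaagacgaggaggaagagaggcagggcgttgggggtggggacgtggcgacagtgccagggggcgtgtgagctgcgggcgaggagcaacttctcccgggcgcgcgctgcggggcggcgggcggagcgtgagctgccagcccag
Gab1 promoter, chr8:80880490-80880769, minus strand: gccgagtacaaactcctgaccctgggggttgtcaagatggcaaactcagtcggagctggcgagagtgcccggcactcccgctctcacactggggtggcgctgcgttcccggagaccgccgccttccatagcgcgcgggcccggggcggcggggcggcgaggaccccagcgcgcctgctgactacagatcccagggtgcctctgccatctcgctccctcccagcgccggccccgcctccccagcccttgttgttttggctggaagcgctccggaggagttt
Cbfa2t3 promoter, chr8:122699080-122699359, minus strand: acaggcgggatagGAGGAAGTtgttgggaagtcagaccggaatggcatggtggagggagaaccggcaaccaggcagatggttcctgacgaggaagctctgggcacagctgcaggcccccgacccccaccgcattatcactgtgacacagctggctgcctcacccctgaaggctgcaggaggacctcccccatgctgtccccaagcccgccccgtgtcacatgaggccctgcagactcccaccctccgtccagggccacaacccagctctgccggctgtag

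On chromosome 8, gains outnumbered losses. Of the 7541 regions, 169 rose (2.24%), where the share over all regions of the table was 1.24%, and 67 fell (0.888%), where the share over all regions was 1.22%. Gains made up 71.6% of the called regions of the chromosome, against 54.6% on the other chromosomes without chromosome 2. Chromosome 2 was left out of that reference because it holds the deleted URE and 3.42% of its regions fell. Chromosome 19 came next, with 2.12% of its 4444 regions up, while chromosome 8 stood 17th of the 20 in the share that fell. At the looser adjusted p of 0.05, 852 regions of chromosome 8 were higher (11.3%, against 7.98% of all regions) and 551 were lower (7.31%, against 9.21%). The share read against the background is the one that led to the choice of the chromosome, so nothing further rests on it.

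The shift was not carried by the called regions alone. The median log2 fold change over the 7541 regions was 0.23, with quartiles of -0.47 and 0.75, and 58.9% of them were positive. On the other chromosomes without chromosome 2 the median was 0.05, with 51.9% positive. Chromosome 7 had nearly the same median, 0.23 over 9088 regions, but 1.52% of its regions rose. Both chromosomes thus had raised medians, and chromosome 8 had the higher share of called gains.

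**Figure D1:**
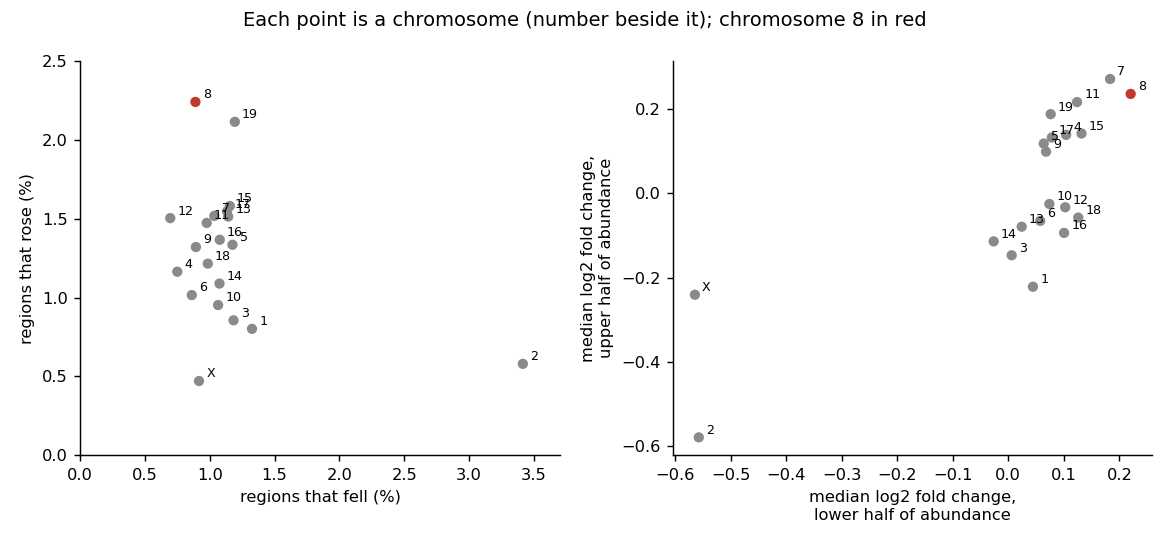
Each point is 1 of 20 mouse chromosomes. On the left the share of regions that rose is plotted against the share that fell, in percent, and on the right the median log2 fold change of the regions in the upper part of abundance (above the table's median) against that in the lower part. Chromosome 8 (red) is highest on the left axis at 2.24%, with chromosome 19 next, and lies beside chromosome 7 on the right.

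The higher median held at every level of reads and in every kind of place. Over 5 equal classes of abundance it ran from 0.21 to 0.27 on chromosome 8 and from 0.01 to 0.07 on the other chromosomes without chromosome 2. Within 1 kb of either end of a gene it was 0.34 on chromosome 8 and 0.21 elsewhere, inside genes 0.19 and 0.02, and between genes 0.19 and 0.00. Regions that rose lay at 32 gene ends, 96 gene interiors and 41 intergenic places, and those that fell at 11, 35 and 21. Gene ends thus made up 18.9% of the gains, 16.4% of the losses and 16.2% of all regions of the chromosome. Few calls lay at low abundance, where the 2 lowest classes held 3 of the 169 gains and no loss. Losses were the more abundant and wider regions, with a median log2 abundance of 1.27 and a width of 701 bp, against 0.23 and 344 bp for gains and 333 bp for all regions of the chromosome.

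**Figure D2:**
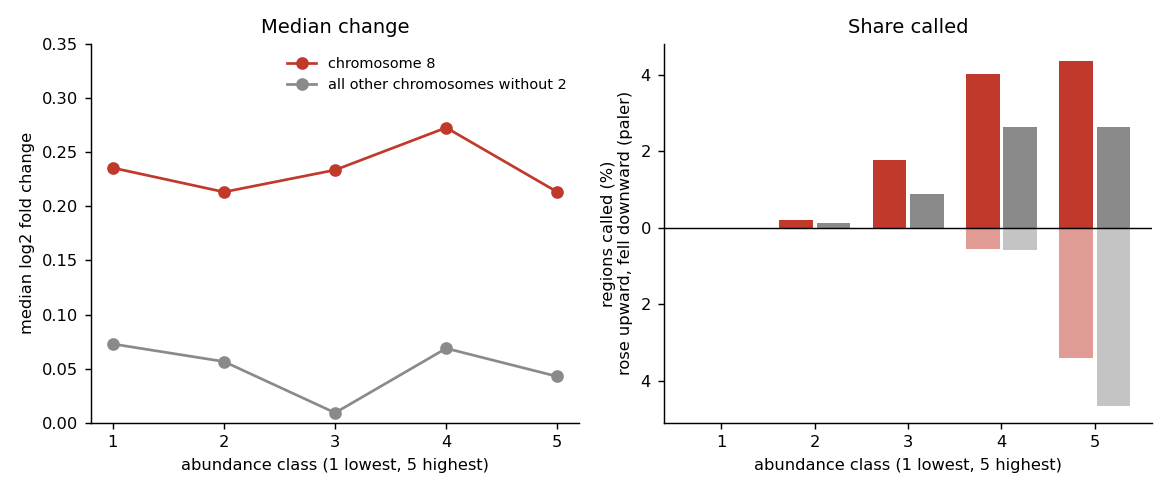
The median log2 fold change (left) and the percent of regions that rose (upward) or fell (downward, paler) on the right, in 5 classes of abundance from lowest to highest, for chromosome 8 (red) and all other chromosomes without chromosome 2 (grey). The red median stays between 0.21 and 0.27 and the grey one between 0.01 and 0.07.

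At the limit of 0.001, the last region counted lay inside Dpep2 with a log2 fold change of 1.62 and an adjusted p of 0.000977 by the authors' deposited table. The next region, nearest to Gm39273, stood at 1.07 with an adjusted p of 0.001002 by the authors' deposited table and was not counted.

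Along the chromosome the rise was broad, with its peak near the far end. Of 26 bins of 5 Mb, 23 had a median above the median of all regions, 0.02, and 21 held more gains than losses. The median of the bins' medians was 0.22, against 0.04 over 437 bins of the other chromosomes without chromosome 2, of which 54.5% lay above the same line. More losses than gains were found in 4 bins, those from 5 to 10, 65 to 70, 80 to 85 and 85 to 90 Mb. The medians below 0 were -0.11 from 5 to 10 Mb, -0.08 from 45 to 50 Mb and -0.01 from 85 to 90 Mb, and no bin lay lower.

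The bin from 120 to 125 Mb, which carries Irf8, Zcchc14, Cyba and Cbfa2t3, had the most regions and the most gains. Of its 724 regions, 29 rose and 7 fell, and the median was 0.43. Just 1 bin of the other chromosomes had at least 29 gains. Without this bin, 140 of 6817 regions rose (2.05%), 60 fell, and the median was 0.21. The bin from 10 to 15 Mb, which carries F7, F10 and Mcf2l, had 13 gains (2.73%) and no loss among 477 regions. From 125 to 130 Mb 14 of 459 regions rose (3.05%) and 1 fell. From 105 to 110 Mb 11 of 479 rose (2.30%) and 1 fell. Over the whole chromosome 2.24% rose, so these shares were not far from it. The highest median, 0.55, belonged to the bin from 100 to 105 Mb, where 1 of 91 regions rose.

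**Figure D3:**
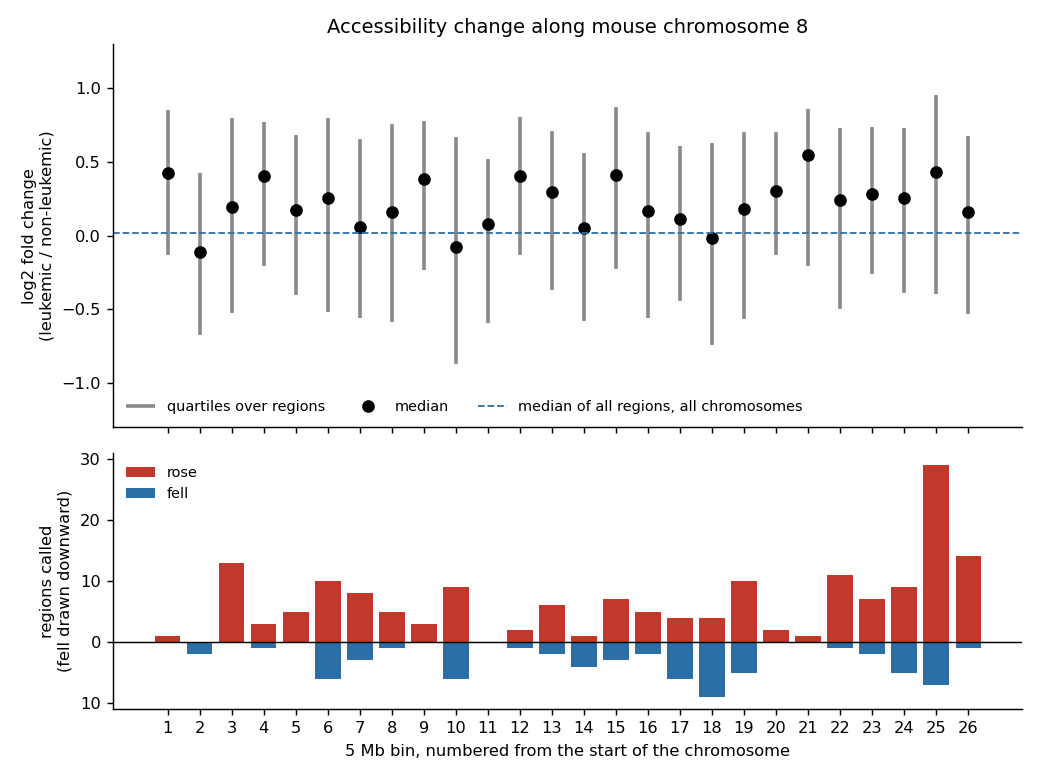
The upper plot gives the median log2 fold change (points) and quartiles (bars) over the regions of each of 26 bins of 5 Mb along chromosome 8, with the median of all regions of the table as a dashed line. The lower plot counts regions that rose (red, upward) and fell (blue, downward), and bin 25, from 120 to 125 Mb, stands out with 29 gains and 7 losses.

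Neighbouring regions resembled each other. Over 7540 adjacent pairs, which share libraries and often the same gene, Pearson's r of the log2 fold changes was 0.29, against 0.23 to 0.30 on 18 other chromosomes. It was 0.32 for gaps under 10 kb, where the other chromosomes ranged from 0.30 to 0.36, and 0.20 for gaps of 100 kb or more. For gaps of 10 to 100 kb it was 0.22, with 0.12 to 0.21 on the others. A second gain lay within 50 kb of 78 of the 169 gains (46.2%), and a second loss within 50 kb of 32 of the 67 losses (47.8%). On the other chromosomes without chromosome 2 these shares ranged from 27.8% to 49.6% for gains and from 17.1% to 54.9% for losses. Chromosome 8 thus lay within both ranges. A loss lay within 50 kb of 11 gains. The longest unbroken run of positive folds was 39 regions over 6323 kb from 97763763 to 104086928, between Gm39231 and Gm29682, with a median of 0.64 and no called region. The longest negative runs had 16 regions each, at Marchf1 (median -0.58, 1 loss) and from Gm30968 to Adgrg1 (median -0.78, no loss).

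By gene, 1455 of the 2381 annotated genes of chromosome 8 were the nearest gene of a region. Of these, 131 had a region that rose (9.0%), 51 had one that fell (3.51%) and 6 had both. At least 2 gains were assigned to 23 genes, 18 of them protein coding, and at least 2 losses to 10 genes, 8 of them protein coding. Long genes collect more regions, so most counts of repeated calls are given beside the number tested.

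**Figure D4:**
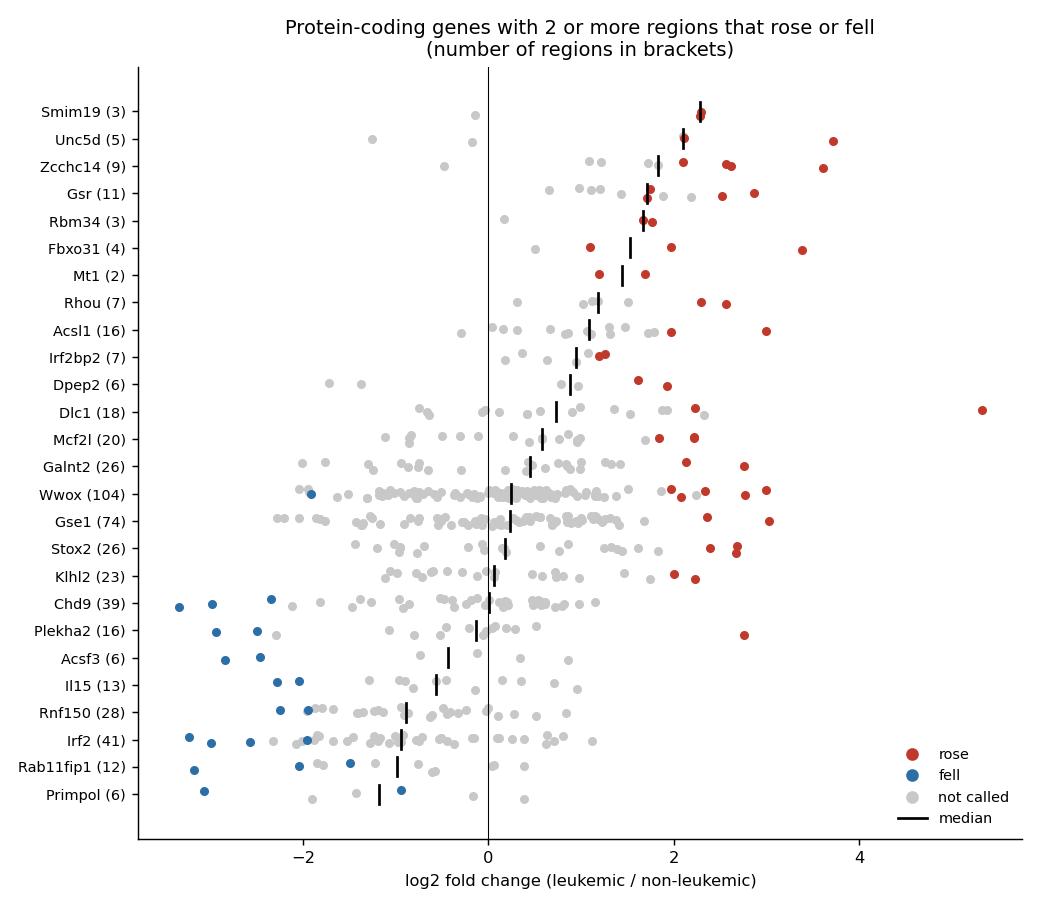
Log2 fold changes of every region nearest to each protein-coding gene with 2 or more gains or 2 or more losses (points, red for rose, blue for fell, grey for not called, with a black bar at the median and the number of regions in brackets). Gsr and Zcchc14 lie almost wholly to the right of 0, Wwox and Gse1 have many regions on both sides of 0 beside a few gains, and Irf2, Rnf150, Rab11fip1 and Primpol have medians well below 0.

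The densest group of gains lay at Zcchc14, a zinc finger gene, and Fbxo31, whose product is a substrate receptor of a ubiquitin ligase that acts on cell cycle proteins. From 121512974 to 121736522, a stretch of 224 kb chosen after its values were seen, 28 of 29 regions were positive, 10 rose, none fell and the median was 1.36. The region at 121652866 to 121653314, beside the higher-coordinate end of Zcchc14, reached 3.61 (adjusted p = 7.23e-09, log2 abundance 3.04) by the authors' deposited table. The gene extents used carry no strand, so that end may be the gene's start. By p-value it ranked 2nd of all 160978 regions. Further gains nearest to Zcchc14 stood at 2.56, 2.10 and 2.61 by the authors' deposited table, so 4 of its 9 regions rose. Inside Fbxo31, 3 of 4 regions rose, at 3.39, 1.09 and 1.97 by the authors' deposited table. Beyond Zcchc14, 3 of 5 regions nearest to the non-coding gene Gm46065 rose, at 3.25, 2.5 and 1.88 by the authors' deposited table. Map1lc3b, the autophagy gene between Fbxo31 and Zcchc14, had a region across its start at 0.70 (adjusted p = 0.162) by the authors' deposited table. Without this stretch the bin had 19 gains among 695 regions, and its median was 0.39.

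Gsr, which encodes glutathione reductase, the enzyme that keeps glutathione reduced, had gains across its length. Of its 11 regions 4 rose, all 11 were positive and 10 were higher at an adjusted p under 0.05. The 4 gains stood at 1.71, 2.86, 2.52 and 1.75 by the authors' deposited table. The neighbouring gene Ubxn8 added a gain of 3.29 by the authors' deposited table.

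The metallothionein genes Mt1 and Mt2, whose small proteins bind zinc and copper, rose together. The region over the Mt2 promoter at 94172103 to 94172894 reached 2.07 (adjusted p = 1.63e-05) by the authors' deposited table. The region over the Mt1 promoter at 94178690 to 94179345 stood at 1.2 (adjusted p = 0.000588, log2 abundance 3.92) by the authors' deposited table. At the other end of Mt1 a region stood at 1.69, and over the promoter of the non-coding gene Gm39228 a region stood at 2.61, both by the authors' deposited table. All 9 regions within 20 kb of Mt1 were positive, with values from 0.60 to 2.61. In the sequences above, metal response elements are found at 4 places in the 300-base Mt2 window, 3 in that of Mt1 and 7 in that of Gm39228, 1 of them past the printed end. Elements that overlap were counted each. Over the genome, 25.7% of 32851 promoter windows hold at least 1 and 1.97% hold 3 or more. The windows of Cdt1, which rose, and of Gm51582, which fell, hold 3 each, so the count is not particular to the metallothionein genes. These windows are rich in G and C, 67.7% in Mt2 and 60.7% in Mt1 against a median of 52.7%, and the part of that in the count was not tested. The AP-1 element of Mt2 is found in 7.81% of windows. The metal response element was chosen after the gains at these genes had been seen.

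**Figure D5:**
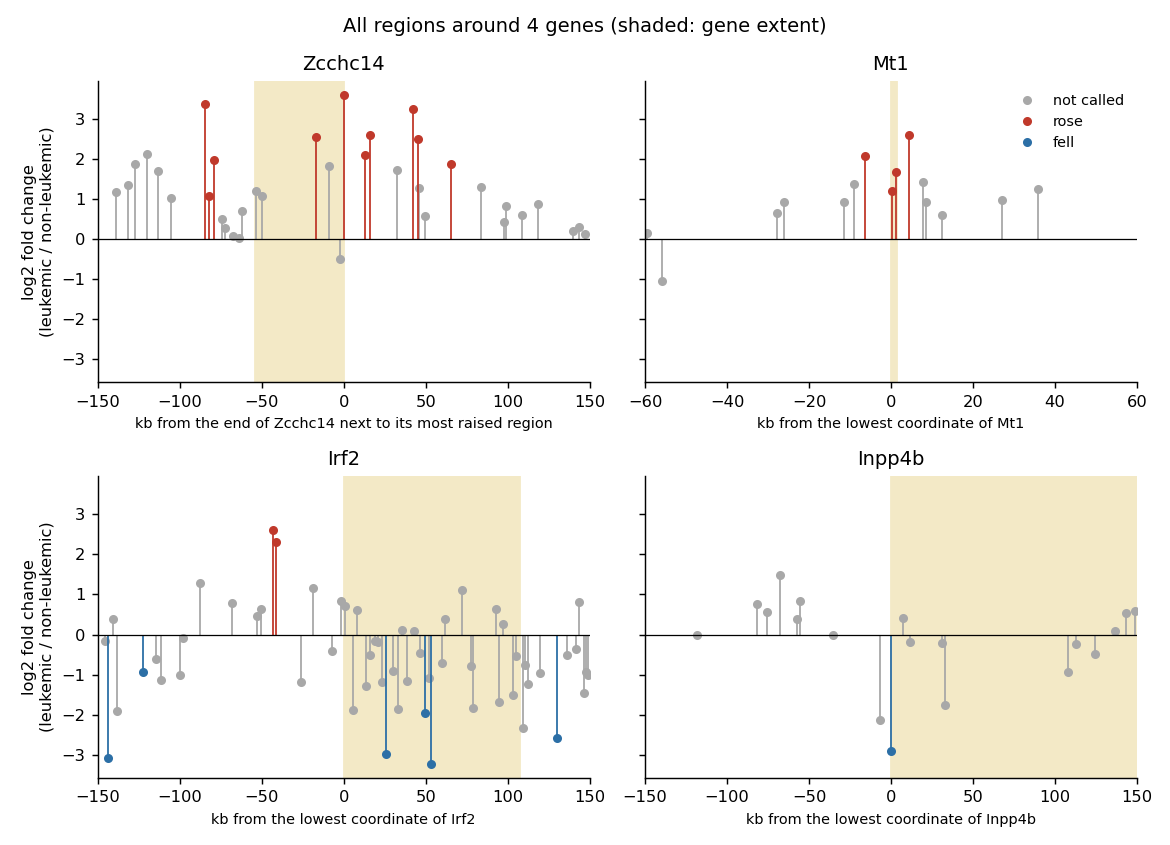
Log2 fold change of every region by distance in kb from the higher-coordinate end of Zcchc14, beside its most raised region, and from the lowest coordinate of Mt1, Irf2 and Inpp4b. Gene extents are shaded, with gains in red, losses in blue and other regions in grey. Gains surround Zcchc14 and Mt1, losses lie inside Irf2 with a pair of gains before it, and at Inpp4b the single loss stands at the gene's start.

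Blood-clotting factor genes F7 and F10, textbook liver genes that lie side by side, each had a gain. The region over the F10 promoter at 13036177 to 13037888 stood at 2.01 (adjusted p = 4.34e-05, log2 abundance 3.66), and the F7 region at 1.94, both by the authors' deposited table. Mcf2l beside them, which encodes an exchange factor that activates small GTPases, had 3 gains among 20 regions, at 1.84, 2.21 and 2.21 by the authors' deposited table. Of the 8 liver and gut genes with a region, F7 and F10 were the only ones with a call. These 8 genes had just 12 regions, of which 2 rose (16.7%, against 2.23% over all genes of the chromosome).

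Of 17 large and tumour suppressor genes, 5 had a gain and 2 a loss, and 11 of their 423 regions rose (2.60%), with a median of 0.15. Over all regions assigned to a gene of the chromosome 2.23% rose, 0.874% fell and the median was 0.23, so that share was near the background. Wwox, an oxidoreductase gene over a common fragile site, had 5 gains and 1 loss among 104 regions, with a median of 0.24. Its gains lay between 114615889 and 115156374, inside the gene, with values from 1.97 to 2.99 by the authors' deposited table. Dlc1, a tumour suppressor gene for a protein that switches off small GTPases, had the 2nd highest fold of the whole table, 5.33 at 36611009 to 36611219 (adjusted p = 1.44e-06) by the authors' deposited table. Its next region, from 36612173 to 36614294, stood at 2.22 by the authors' deposited table, and 13 of 18 regions of the gene were positive. Unc5d, a netrin receptor gene, had 2 gains among 5 regions, at 3.71 and 2.11, the second at its higher-coordinate end, by the authors' deposited table. Stox2 had 3 gains among 26 regions, from 2.39 to 2.68 by the authors' deposited table, although its median was 0.17.

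Single regions with high folds also lay at genes of chromatin and transcription. At the higher-coordinate end of Ash2l, a subunit of histone H3 lysine methyltransferase complexes, a region of 1130 bp stood at 3.63 (adjusted p = 3.88e-06) by the authors' deposited table. Near Rfxank, which encodes a factor of MHC class II genes, the fold was 3.35 by the authors' deposited table. Outside this group, a region near Cln8, an endoplasmic reticulum gene, stood at 3.31 by the authors' deposited table. The 7 regions of Cln8 had a median of -1.15, with 2 higher and 3 lower at an adjusted p under 0.05. Gse1 had 2 gains among 74 regions, at 2.35 and 3.03 by the authors' deposited table, and 9 lower regions at an adjusted p under 0.05. Nsd3, a histone methyltransferase gene, had 1 gain among 24 regions. Kat6a, Smarca5 and Ctcf had no called region within 20 kb, among 18, 10 and 9.

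The other genes with repeated gains lay in several parts of the chromosome. Rbm34, an RNA-binding protein gene, had 2 gains among 3 regions, at 1.77 and 1.66 by the authors' deposited table, both outside the gene. Irf2bp2, for a partner of IRF2, had 2 among 7, at 1.19 and 1.26 by the authors' deposited table, small changes at regions with log2 abundance of 3.32 and 2.95. Smim19 had 2 among 3, at 2.28 and 2.29, and Klhl2 had 2 among 23, the higher at 2.22, by the authors' deposited table. Dpep2, a dipeptidase gene, had 2 among 6, and Rhou 2 among 7, the second at 2.56 by the authors' deposited table. Of the non-coding genes, Gm31718 had 3 gains among 36 regions, Gm38416 had 2 of 2, and Gm31546 had 2 gains and 1 loss among 12. The single gain inside Ccdc102a, at 3.33, was also among the 10 highest by the authors' deposited table.

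Among losses, Irf2, which encodes an interferon regulatory factor that represses interferon response genes and competes with IRF1, stood first. Of 41 regions, 4 fell, none rose and 13 were lower at an adjusted p under 0.05, with a median of -0.95. The 4 losses were -2.99, -1.96, -3.23 and -2.57 by the authors' deposited table. The region across the start of Irf2, from 46739143 to 46742100, stood at 0.71 (adjusted p = 0.325) by the authors' deposited table, so the losses lay inside and past the gene and not at its start. A run of 13 regions from Irf2 to Enpp6 was negative throughout, with a median of -1.37. Primpol, the primase and polymerase gene on the other side, had 2 losses among 6 regions, at -3.07 and -0.94 by the authors' deposited table. Between these genes, Gm31111 had 2 gains among 5 regions, at 2.62 and 2.31 by the authors' deposited table.

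The starts of Inpp4b and Gab1, which both act on phosphoinositide signalling, fell. The region at 81341268 to 81343537, over the shared start of Inpp4b, a phosphatase gene of PI(3,4)P2, and of the gene model Gm51582, stood at -2.92 (adjusted p = 1.59e-06, log2 abundance 3.69) by the authors' deposited table. That was the lowest adjusted p among the losses of the chromosome. Within Inpp4b and 20 kb beside it, 41 of 62 regions were positive and no other was called. The region over the start of Gab1, an adaptor of growth factor receptors that lies before Inpp4b, stood at -2.49 (adjusted p = 3.52e-05) by the authors' deposited table. Around Gab1 16 of 21 regions were negative. Among its 16 regions Plekha2, whose protein binds PI(3,4)P2, had losses of -2.93 and -2.5 and a gain of 2.76 by the authors' deposited table.

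Other genes with repeated losses were Chd9, Rab11fip1, Il15, Rnf150 and Acsf3. Chd9, a chromatin remodeller gene, had 3 losses among 39 regions, from -3.34 to -2.34 by the authors' deposited table, with a median of 0.01. Rab11fip1, which acts in membrane recycling, had 3 losses among 12. The one at its higher-coordinate end was the most abundant loss of the chromosome, at -1.50 with a log2 abundance of 4.87 by the authors' deposited table. Il15, the cytokine gene for natural killer and memory T cells, had 2 losses among 13, at -2.04 and -2.27 by the authors' deposited table. Rnf150 had 2 among 28, at -2.24 and -1.95 by the authors' deposited table, with a median of -0.89. Acsf3, a mitochondrial malonyl-CoA synthetase gene, had 2 among 6, at -2.85 and -2.47 by the authors' deposited table. The non-coding gene Gm39256 had 2 among 38, at -2.03 and -2.67 by the authors' deposited table. The lowest called fold of the chromosome was -3.49 inside Rnf166 by the authors' deposited table. Single losses among the 10 lowest also lay near the pseudogene Hmgb1-rs17 at -3.25, inside 1700011L22Rik at -3.04 and near Cmip at -3.02 by the authors' deposited table.

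Gene groups are read against all genes of the chromosome, of which 9.0% had a gain and 3.51% a loss. Of 21 blood transcription factor genes with a region, 2 had a gain and 2 a loss. Over their 173 regions 2 rose (1.16%, against 2.23% over all genes) and 5 fell (2.89%, against 0.874%), with a median of -0.18, against 0.23. Irf2 gave 4 of the 5 losses. The fifth lay at the start of Cbfa2t3, a co-repressor gene of stem and erythroid cells, at -1.89 (adjusted p = 0.000834) by the authors' deposited table. Next to it, 2 of 3 regions nearest to Gm10612 fell, at -2.61 and -2.55 by the authors' deposited table. The printed Cbfa2t3 window holds GAGGAAGT, the PU.1 element, 237 bases before the start, as do 3.20% of all promoter windows of this length.

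Irf8, a factor for monocyte fate and a known partner of PU.1, had 1 gain among 17 regions within 20 kb. That region, at 120740712 to 120741317 inside the gene, stood at 2.86 (adjusted p = 5.27e-05) by the authors' deposited table. The region over its start, from 120735881 to 120737490, stood at 0.83 (adjusted p = 0.255) by the authors' deposited table. Past the gene the 3 nearest regions stood at 0.20, 0.19 and 0.69, and the next 5, nearest to Gm39266, lay between -1.19 and -0.35 by the authors' deposited table. The next counts also cover 20 kb on each side, and so take in regions of neighbouring genes. Cbfb had no call among 6 regions, with a median of 0.28. Klf1 had none among 6, all positive with a median of 0.45, Junb none among 13 with 0.70, and Klf2 none among 4 with -0.57. By nearest gene the medians were 0.03 over 3 regions for Cbfb and 0.52 over 2 for Klf1. They were -0.10 over 4 for Junb and -0.60 over 3 for Klf2. Near Lyl1 the one gain, at 0.98 by the authors' deposited table, lay inside Nfix, the smallest rise on the chromosome.

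Myeloid effector genes, fixed as a list with earlier results of these data known, had 6 of 22 members with a gain and 2 with a loss. Over their 155 regions 10 rose (6.45%, against 2.23% over all genes) and 2 fell (1.29%, against 0.874%), with a median of 0.04, below the 0.23 over all genes. Gsr gave 4 of the 10 gains and F10 gave 1. Acsl1, a long-chain fatty acid activating enzyme gene, had 2 gains among 16 regions, at 1.97 and 2.99 by the authors' deposited table. Hp, for haptoglobin, had 1 region, a gain of 1.57 by the authors' deposited table. Adgre5 and Adgrg3, adhesion receptor genes of leukocytes, had 1 each, at 1.81 and 1.60 by the authors' deposited table. The losses were at Lpl, for lipoprotein lipase, at -2.30, and at Nod2, a sensor of bacterial wall fragments, at -1.89, by the authors' deposited table. At Nod2 all 6 regions were negative, with a median of -1.62.

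Metabolism and stress genes had 7 of 19 members with a gain and 1 with a loss, and 16 of their 116 regions rose (13.8%, against 2.23% over all genes), with a median of 0.74. Zcchc14, Gsr, Mt1 and Mt2 gave 11 of the 16, and as the list was made with their gains known it is no independent evidence. The other members with a gain were Acsl1, Galnt2 and Slc7a5. Galnt2, an O-glycosylation enzyme gene, had 2 gains among 26 regions, at 2.13 and 2.76 by the authors' deposited table. At an adjusted p under 0.05, 3 of the 26 were lower. Slc7a5, the large neutral amino acid carrier gene, had a gain of 1.54 by the authors' deposited table. Nqo1 and Got2, of the same list, had no call. The median of 0.74 was not particular to this list. Protein and RNA genes of every cell, 11 with a region, had a median of 0.69 over 35 regions. Of those 35 regions 1 rose (2.86%, near the 2.23% over all genes).

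Cell cycle and repair genes had 3 of 21 members with a gain and none with a loss. By region 2.86% of 105 rose, near the 2.23% over all genes, with a median of 0.37. They were Cdt1, which licenses replication origins, at 2.10 over its promoter, Tfdp1, the partner of E2F factors, at 2.07, and Fanca, of the Fanconi anemia pathway, at 2.4, by the authors' deposited table. Cytokine and receptor genes had 4 of 21 with a gain, Il34 and Gdf15 among them, and 1 with a loss, Il15, and by region 2.48% rose, again near 2.23%. Chromatin genes had 4 of 22 with a gain and 2 with a loss, and growth and inflammatory signalling genes 4 of 24 and 1. By region 1.58% and 1.60% of these groups rose, below the share over all genes.

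Markers of other cells also held calls. Among erythroid genes 3 of 13 had a gain, with 4.71% of 85 regions up, namely Mt1, Mt2 and Nfix, and Cbfa2t3 a loss, while Klf1 and Ank1 had none. Of 11 lymphoid genes only Il15 was called, and its losses were 2.53% of the group's 79 regions, against 0.874% over all genes. Of 11 endothelial and stromal genes Ednra and Col4a1 had a gain and Palld a loss, and Cdh5 had none. By region 1.61% of that group's 124 rose and 0.806% fell, not above the 2.23% and 0.874% over all genes. Of 12 neural genes Unc5d, Csmd1 and Galntl6 had gains (2.61% of 153 regions) and Adcy7, an adenylate cyclase gene also expressed in blood cells, a loss of -3.17 by the authors' deposited table. The part of other cell types in these folds was not tested.

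Promoter windows held a small part of the calls, but they cover just 1204 of the 2381 annotated genes. Calls over promoters without a window are not counted here. Within 1 kb of either end of a gene, 32 regions rose and 11 fell. Regions overlapped the promoter windows of 631 of 1204 genes, and of these 555 regions 9 rose (1.62%) and 5 fell (0.901%), with a median of 0.30. Besides those shown, gains lay over the promoters of Fcor, Cdt1, Rhou, a small GTPase gene, 4930512H18Rik and Gm30713, and losses over those of Hsh2d, an adaptor gene of blood cells, and Primpol. They ranged from 1.21 at Fcor to 2.32 at 4930512H18Rik, and the losses stood at -2.38 and -0.94, by the authors' deposited table. Of 17 windows with a call, 2 held the RUNX element TGTGGT (16.8% of all windows); TGCGCNC was in 6 (15.4% of all windows) and TGCACNC in 7 (12.6%), losses included. None held the GATA element AGATAA (11.2%), the CEBP element TTGCGCAA (0.183%) or the E-box CACGTG (7.15%). The absence of these letters says only that they are not in these windows.

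Of 40 microRNA hairpins of the chromosome, 27 had a region within 5 kb and 2 had one that rose. Mir138-2 had 1 at 2.66, inside Nup93, and Mir7079 had 1 at 1.55, at Rpl13, by the authors' deposited table. The cluster of Mir23a, Mir27a and Mir24-2 had 4 regions between -0.16 and 0.94, none of them called.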

How the data were processed

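Reads were processed against GRCm38 (mm10), and Bowtie2 2.4.1, SAMtools 1.10.2 and Genrich 0.6 are named, per the submitters' processing notes. The deposited table's title names csaw, while its settings, normalization and filters on reads are not stated in the sources used here. Per region the authors deposited a log2 fold change, a log2 abundance (a reading of the column from its place and range), a p-value and an adjusted p-value. The adjusted values equal a Benjamini-Hochberg adjustment over all 160978 regions to within 2.39e-15. The authors' lists of raised and lowered regions equal an adjusted p under 0.001 with the matching sign. Without values per library, depth is unknown and neither an interval on a fold nor a test over mice could be made. Coordinates are as deposited, with an unstated base for starts.

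From these values, counts, medians and bins were computed with Python 3.11.15, pandas 2.3.3 and numpy 2.4.6, and the counting steps were tested on simulated data. Region centres were given to the nearest gene extent within 100 kb in RefSeq's GRCm38.p6 table (98.6% assigned), in place of the planned start sites, since that table has no strand and the promoter table covers 1204 of 2381 genes. A gene end is within 1 kb of either end of a gene, and as the extents carry no strand it may be the gene's start. Bins are 5 Mb by region centre. The rule for named genes took those with at least 2 gains or 2 losses, those of the 10 highest and 10 lowest called folds, of the lowest adjusted p per bin, of called gene ends, list members with a call, and Irf8, Cbfb, Klf1, Lyl1, Junb, Klf2, Wwox, Dlc1 and Zcchc14. Not every gene of the lowest adjusted p per bin or of a called gene end is printed. Other genes named, such as uncalled list members and neighbours of those above, were chosen after their values were seen. The members, the 14 gene lists and the named genes were chosen with earlier results of these data known. Alternatives changed the adjusted p, abundance, centring, bins and gene assignment.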

Additional observations from a re-analysis of the deposited data

How the results depend on the processing

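Gains outnumbered losses on chromosome 8 under each alternative tried. The chromosome was chosen for its share of gains and the alternatives reuse the same values, so this gives no independent support. The 169 gains and 67 losses became 852 and 551 at an adjusted p under 0.05, so that 60.7% of the called regions were gains, and 53 and 13 at an adjusted p under 0.0001, where 80.3% were gains. With a fold of at least 2 as well they were 168 and 66, so that setting removed almost no call. Above the median abundance they were 157 and 67, and without the bin from 120 to 125 Mb 140 and 60. These counts were within 1.5 times the reported ones. Centring shifted the folds by less than the smallest called fold, so by construction it could not change a call. The median of 0.23 was 0.19 away from gene ends and 0.15 after the median of the autosomes outside chromosome 2, 0.07, was taken off. With bins shifted by 2.5 Mb, 19 of 25 had a median above that of all regions, and with bins of 2 Mb 46 of 60 did. Genes with at least 2 gains numbered 23, or 24 by the nearest protein-coding gene (18 shared), 63 when each gene took every region inside it or within 20 kb (22 shared), 185 at an adjusted p under 0.05 (23 shared) and 20 by the nearest annotated start (10 shared), the last chosen after seeing the data, as were the exclusion of 1 bin and the centred median. The share of regions on other chromosomes that fell was 1.23%, and 1.04% without chromosome 2. With gene ends widened to 3 kb, 35.5% of gains and 29.9% of losses lay at one. No paired analysis was possible because the files give 1 comparison and no values per library, and for the same reason no replicate could be left out. Called gains lay above the lowest of 5 classes of abundance and called losses in the 2 highest, and what depth alone allows was not tested.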
